A study of Mus musculus with 451 samples.

Results

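The 42 genes described here are 33 immediate early genes and 9 heat shock chaperone genes, a set named by gene symbol because both kinds of gene respond when a tissue is taken apart. A gene was kept where it had 100 or more reads over all cells of the raw count table. Of the 42 genes, 41 passed, among 10963 of the 48795 gene symbols in the table. Egr3, an immediate early transcription factor, had 0 reads in both genotypes and is not described further. The 41 genes fall into 9 AP-1 subunits and partners, 9 other immediate early transcription factors, 14 early regulators and feedback inhibitors, and 9 heat shock chaperones, so that 32 are immediate early genes.

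The study asked how loss of Mkx, which encodes the tendon transcription factor Mohawk, changes single tendon cells. Cells came from the tail tendons of 4-week-old mice, either WT C57BL/6 or Mkx-/- C57BL/6, and the labels name no other allele, agent or treatment. Both genotypes were minced, digested in 0.2% collagenase I at 37 °C for 2 hours and passed through a 40 μm strainer. Cells were captured on a Fluidigm C1 system with high-throughput circuits, in which each cell is lysed in its own chamber. The sources used here do not say which cells shared a library. Since no label ties a cell to an animal or to a C1 chip, each genotype counts as 1 sample. No test between genotypes or cell states was therefore possible, and every interval below is a 95% interval that covers counting error only. The values are read counts and not counts of tagged molecules, so several reads may come from 1 molecule.

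The table held 227 WT cells with 13630536 reads and 224 Mkx-/- cells with 14145394 reads. The median cell had 51788 reads in WT, over a range of 13076 to 335813, and 56121 reads in Mkx-/-, over a range of 14226 to 294791. Mkx itself had 33.8 CPM (the reads of a gene per 1000000 reads of the library) in WT and 15.5 CPM in Mkx-/-, so reads of the targeted gene remained under the Mkx-/- label, and the part of the gene that was deleted is not given in the sources used here. Cells holding at least 2 detected markers of another cell type, with 10 or more reads in all, numbered 28 in WT and 25 in Mkx-/-. A cell could meet several lists, and in WT and Mkx-/- the mural list was met by 12 and 18 cells, the leukocyte list by 9 and 3, the Schwann cell list by 7 and 6, the endothelial list by 4 and 2, the red cell list by 4 and 0, the skeletal muscle list by 1 and 0, and the epidermal list by 0 and 0. The summed markers of each list lay between 1.91 and 121.8 CPM in WT and between 0.566 and 144.1 CPM in Mkx-/-, and 1 muscle, 1 epidermal and 2 red cell markers were at 0.

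Immediate early genes are switched on by pre-existing transcription factors within minutes of a stimulus, without new protein synthesis, and their RNAs are short-lived. Many encode transcription factors, among them the Fos and Jun families that pair as AP-1, while others encode proteins that shut the signal off again, such as the phosphatases of MAP kinases and the proteins that destabilize these same RNAs. Heat shock genes are driven by heat shock factor 1, which binds heat shock elements in their promoters when unfolded protein builds up, and they encode chaperones that refold or hold it. Both programmes are known to be induced during enzymatic digestion at body temperature. Both genotypes were digested by the same protocol and no undigested tissue was profiled. Levels present in the tendon and levels gained during digestion therefore cannot be told apart. The sources used here do not say whether the genotypes shared a digestion or capture run. Genotype and run therefore cannot be told apart either.

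The promoters of 6 of the genes are shown because these genes recur in the results and their windows hold a known promoter motif. Each is the 250 bases before the RefSeq transcription start on GRCm38.p6, read 5′ to 3′ on the strand of the gene, with a motif match in capitals. In Fos, at chr12:85473640-85473889 on the plus strand, the capitals mark a TATA box, TATAAA. In Zfp36, at chr7:28379229-28379478 on the minus strand, they mark a CArG box, the site of serum response factor. In Btg2, at chr1:134079156-134079405 on the minus strand, they mark a cyclic AMP response element (CRE), TGACGTCA. In Hspa1a, at chr17:34972157-34972406, and in Hspa1b, at chr17:34959239-34959488, both on the minus strand, and in Hspb1, at chr5:135887669-135887918 on the plus strand, they mark heat shock elements, GAANNTTC.
Fos: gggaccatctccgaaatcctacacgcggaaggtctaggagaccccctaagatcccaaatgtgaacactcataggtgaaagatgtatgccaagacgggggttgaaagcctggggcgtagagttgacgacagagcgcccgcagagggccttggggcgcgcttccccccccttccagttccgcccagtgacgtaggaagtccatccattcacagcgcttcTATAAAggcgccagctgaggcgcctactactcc
Zfp36: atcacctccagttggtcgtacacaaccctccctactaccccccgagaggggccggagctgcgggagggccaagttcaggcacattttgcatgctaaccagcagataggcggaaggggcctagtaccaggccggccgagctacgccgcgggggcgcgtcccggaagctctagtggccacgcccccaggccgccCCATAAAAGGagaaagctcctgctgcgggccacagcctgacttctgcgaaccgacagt
Btg2: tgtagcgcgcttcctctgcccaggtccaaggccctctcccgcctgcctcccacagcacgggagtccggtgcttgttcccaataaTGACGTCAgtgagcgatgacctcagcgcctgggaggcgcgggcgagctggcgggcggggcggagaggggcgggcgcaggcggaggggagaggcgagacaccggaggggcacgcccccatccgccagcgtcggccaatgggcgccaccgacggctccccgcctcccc
Hspa1a: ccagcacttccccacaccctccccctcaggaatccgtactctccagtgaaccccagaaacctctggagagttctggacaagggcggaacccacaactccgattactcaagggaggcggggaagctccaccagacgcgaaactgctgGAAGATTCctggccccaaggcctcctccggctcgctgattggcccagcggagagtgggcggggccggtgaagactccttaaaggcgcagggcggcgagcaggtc
Hspa1b: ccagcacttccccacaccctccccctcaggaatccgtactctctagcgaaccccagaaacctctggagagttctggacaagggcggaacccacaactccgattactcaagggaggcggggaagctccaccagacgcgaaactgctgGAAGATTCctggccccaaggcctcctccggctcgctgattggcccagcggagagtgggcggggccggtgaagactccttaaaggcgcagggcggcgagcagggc
Hspb1: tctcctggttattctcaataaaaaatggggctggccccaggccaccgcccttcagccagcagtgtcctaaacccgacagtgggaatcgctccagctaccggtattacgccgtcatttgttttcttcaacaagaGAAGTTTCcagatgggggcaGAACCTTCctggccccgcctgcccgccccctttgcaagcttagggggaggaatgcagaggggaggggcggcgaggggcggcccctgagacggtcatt

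RefSeq promoters were matched for 34 of the 42 genes and were searched on both strands beside all 32851 promoters in the table. A gene was counted if any of its promoters held the motif, while the share of all is per promoter, so the scales differ. The heat shock element was present in 4 of 6 heat shock genes, Hspa1a, Hspa1b, Dnaja1 and Hspb1, in 2 of 28 immediate early genes, Fosl2 and Jun, and in 6.69% of all promoters. The CRE was present in 3 of the 34, in Maff, Dusp1 and Btg2, against 1.55% of all promoters. The AP-1 site TGANTCA was in 2 of 34, Klf9 and Zfp36l1, against 6.75% of all. TATAAA was in 4 of 34, Fos, Nr4a2, Zfp36l1 and Gadd45b, against 12.4%, and the CArG box was in 1 of 34, Zfp36, against 1.47%. The Hspa1a and Hspa1b promoters printed above differed at 3 of 250 bases. A match describes these letters in this window and not a bound site.

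Together the 41 genes took 1.2% of WT reads and 1.25% of Mkx-/- reads, with 0.948% and 0.980% in the immediate early genes and 0.252% and 0.265% in the heat shock genes. Divided by exon length so that genes can be compared, the highest level was that of Nfkbia, the inhibitor that holds NF-κB in the cytoplasm, at 749 CPM per kb in WT and 957 in Mkx-/-. Ier3, an early response gene that modulates survival signalling, followed in WT at 477 CPM per kb, with 404 in Mkx-/-. Next in WT came Atf3, a stress-induced AP-1 partner, at 303 CPM per kb, and Klf4, a zinc finger transcription factor, at 289 CPM per kb. In Mkx-/- the second place was held by Gadd45b, an activator of stress kinase signalling, at 415 CPM per kb against 266 in WT. The C1 protocol for high-throughput circuits reads mostly the 3′ end of a transcript, so dividing by length may not put genes on an equal footing, and the order depends on it. With 1 sample per genotype, neighbours in these orders have no replicate spread against which to separate them.

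How evenly the reads were spread over cells differed greatly between genes. To compare cells of unequal depth, each was thinned at random to 20000 reads, which left out 2 WT and 5 Mkx-/- cells with fewer reads and made 1 read worth 50 CPM. At that depth 5 of the 41 genes were detected in over 90% of the cells of both genotypes: Klf4, Klf6, Nfkbia, Hspa8 and Hsp90ab1. Nfkbia was detected in 98.7% of WT and 99.5% of Mkx-/- cells and Hspa8, the constitutive HSP70 chaperone, in 98.7% and 98.6%. At the other end, Dusp6 was detected in 4.89% and 4.57% of cells, Jund in 5.78% and 7.76%, and Socs3 in 19.1% and 13.7%. In 21 of the 41 genes, the 10% of cells with the most reads held over 50% of the gene's reads in both genotypes.

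Fos, the founding immediate early gene and an AP-1 subunit, was among the uneven genes. Over WT cells its level ranged from 0 to 6459 CPM with a median of 44.3, and over Mkx-/- cells from 0 to 9006 CPM with a median of 34.2. The highest 10% of cells held 67.3% of its WT reads and 78.4% of its Mkx-/- reads, so its summed level was carried by a minority of cells in both. Hspa1a, an inducible HSP70, was also uneven, with a median of 0 in both genotypes, highest cells at 2850 and 3394 CPM, and 85.1% and 78.7% of reads in the highest 10% of cells. Klf4 was spread widely, with medians of 827 and 662 CPM and 27.6% and 33.3% of reads in the highest 10%.

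The first comparison was of Mkx-/- with WT over all cells. The immediate early and heat shock genes had nearly the same summed levels in both: the median log2 ratio, Mkx-/- over WT, was 0.02 over the 41 genes, beside 0.05 over all 10963 genes. Only Gadd45b was over 1.5-fold higher in Mkx-/-, 1 of 41 beside 16% of all genes. Maff, Cebpb, Dusp6 and Socs3 were over 1.5-fold lower, 4 of 41 beside 13.1% of all genes. The counting interval lay above 0 for 14 of 41 genes beside 37.6% of all, and below 0 for 18 of 41 beside 28.7% of all. Other ways of setting the library size moved every log2 ratio by -0.06 or -0.05, so ratios that close to 0, those of Hsp90aa1 and Hsp90ab1 included, have no fixed sign. Over all alternatives tried, the ratio took either sign in 16 of the 41 genes.

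**Figure D1:**
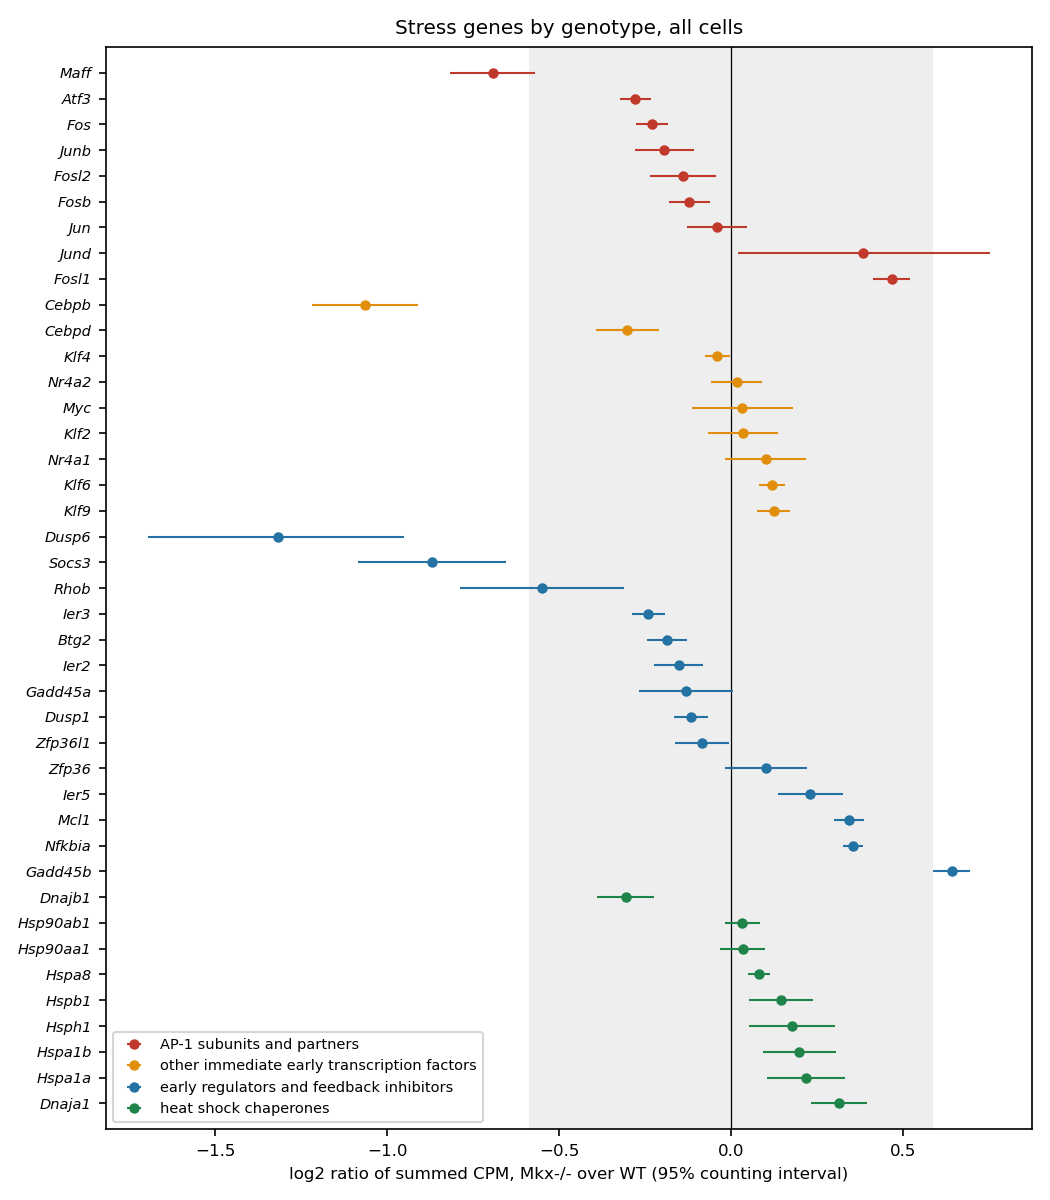
Log2 ratio of summed CPM, Mkx-/- over WT, for the 41 genes, ordered within their 4 groups (colours), with 95% counting intervals as bars and the range under 1.5-fold shaded. Most genes lay inside the shaded range, with Gadd45b at 0.64 to its right and Maff (-0.69), Socs3 (-0.87), Cebpb (-1.06) and Dusp6 (-1.32) to its left.

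Among the AP-1 subunits and partners the median log2 ratio was -0.14, with 1 of 9 genes over 1.5-fold lower and 0 higher. The summed level of Fos was 584 CPM [571, 597] in WT and 498 CPM [486, 510] in Mkx-/-, a log2 ratio of -0.23 [-0.28, -0.18]. Atf3 was at 601 and 495 CPM (log2 ratio -0.28), Fosb at 332 and 305 (-0.12), Junb at 173.2 and 151.4 (-0.19), and Jun at 155.4 and 151.1 (-0.04), and Fosl2 had a log2 ratio of -0.14. Fosl1, which encodes FRA-1, a Fos relative that follows sustained growth signals, went the other way. Its median cell stood at 116.5 CPM in WT against 345 in Mkx-/-, it was detected in 66.2% and 79.5% of cells at 20000 reads, and its log2 ratio was 0.47 [0.41, 0.52]. Maff, at chr15:79177971-79189502 on the plus strand (NCBIM37), encodes a small Maf protein that pairs with AP-1 family members, and it had 101.98 CPM in WT and 63.1 in Mkx-/-, a log2 ratio of -0.69 [-0.82, -0.57]. The highest Maff cell reached 1345 CPM in WT against 479 in Mkx-/-, and the ranges of cells overlapped from 0 upward. Jund, a Jun relative that is mostly constitutive, was sparse, at 8.07 and 10.5 CPM (log2 ratio 0.38, and -0.17 without cells holding markers of another type).

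Among the other immediate early transcription factors, 8 of 9 lay within 1.5-fold and the exception was Cebpb. This C/EBP family member, an inflammatory and differentiation factor encoded at chr2:167514415-167515918 on the plus strand (NCBIM37, GENCODE M1), had a level of 76.9 CPM [72.3, 81.7] in WT against 36.8 CPM [33.7, 40.1] in Mkx-/-, a log2 ratio of -1.06 [-1.22, -0.91]. Its median cell was at 32.1 CPM in WT and 0 in Mkx-/-, its highest cell at 850 and 394 CPM, and at 20000 reads it was detected in 49.8% [43.1, 56.5] of WT cells and 29.2% [23.3, 35.7] of Mkx-/- cells. Cells of both genotypes reached down to 0, so the ranges overlapped. The intervals of the shares cover the counting of cells of 1 sample each and give no replicate spread between genotypes. Its relative Cebpd was at 153.5 and 124.5 CPM (log2 ratio -0.30). The Krüppel-like factors were close to even, with Klf4 at 884 and 860 CPM, Klf6 at 763 and 828, and Klf9 at 483 and 526, and Klf2 had a log2 ratio of 0.03. The orphan nuclear receptors Nr4a1 (81.6 and 87.5 CPM) and Nr4a2 (212.98 and 215.4 CPM), and Myc (53.6 and 54.8 CPM), had intervals of the log2 ratio that included 0.

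Among the early regulators and feedback inhibitors the median log2 ratio was -0.12, with 1 of 14 genes over 1.5-fold higher and 2 of 14 lower. Gadd45b, at chr10:80392836-80394949 on the plus strand (NCBIM37), had a level of 336 CPM [327, 346] in WT against 525 CPM [513, 537] in Mkx-/-, a log2 ratio of 0.64 [0.59, 0.70]. Its median cell was at 69.5 and 92.5 CPM and its highest at 3199 and 5304 CPM, and it was detected in 58.7% and 64.8% of cells. Under 4 of the 11 other ways of computing the ratio it came out at 1.5-fold or less, down to 0.39. Nfkbia was at 1181 and 1510 CPM, with a log2 ratio of 0.35 [0.33, 0.38] and median cells at 1023 and 1286 CPM. Mcl1, an anti-apoptotic BCL2 relative with a short-lived product, was at 538 and 682 CPM (log2 ratio 0.34). Ier5, an early gene known to act on heat shock factor 1, was at 123.2 and 144.5 CPM (0.23), while Ier2 was at 244 and 220 (-0.15) and Ier3 at 540 and 457 (-0.24). Under other settings the ratios of Ier2 and Ier3 reached 0.27 and 0.06.

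Of the proteins that end the early response, the phosphatase Dusp1, which inactivates MAP kinases, was at 493 and 454 CPM (log2 ratio -0.12), and the antiproliferative Btg2 at 351 and 308 (-0.19). Zfp36 (tristetraprolin) and Zfp36l1, which bind AU-rich elements and destabilize early RNAs, were at 79.5 and 85.4 CPM (0.10) and at 199.6 and 188.3 CPM (-0.08). Zfp36l1 has 1 near-identical copy in the genome, at 95.88% identity, so its count may be shared. Socs3, a feedback inhibitor of cytokine receptor signalling through STAT3, was at 36.5 and 20.01 CPM, a log2 ratio of -0.87 [-1.08, -0.66], from 498 and 283 reads. A single cell held 15.9% of its WT reads and another 16.6% of its Mkx-/- reads. Dusp6, the ERK phosphatase, had the lowest ratio, -1.32 [-1.70, -0.95], at 15.3 and 6.15 CPM, and 1 cell held 48.3% of its reads in WT and 27.6% in Mkx-/-. Without the cells that carried markers of another cell type its ratio was -0.28, and as a mean of per-cell CPM it was 0.30. Rhob, a small GTPase, was at 25.8 and 17.6 CPM (-0.55), and Gadd45a at 66.7 and 60.9 CPM (-0.13).

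Among the heat shock chaperones the median log2 ratio was 0.15, none of the 9 lay past 1.5-fold, beside 16% higher and 13.1% lower of all genes, and the counting interval lay above 0 for 6 and below 0 for 1, beside 37.6% and 28.7% of all genes. Hspa1a and Hspa1b, the inducible HSP70 pair, were at 83.8 and 97.4 CPM (log2 ratio 0.22 [0.10, 0.33]) and at 97.5 and 111.9 CPM (0.20). Their direction was not fixed: with equal weight for each cluster Hspa1a was at -0.23, and without cells holding markers of another type Hspa1b was at -0.25. Their transcripts aligned over 2164 bases with 99.49% identity, so reads may be split between them in a way that is not given in the sources used here. Hsph1, an HSP110 nucleotide exchange factor, was at 70.5 and 79.7 CPM (0.18). Of the HSP40 co-chaperones, which hand clients to HSP70, Dnajb1 was at 186.1 and 150.5 CPM (-0.31, and 0.04 in cells with 2500 or more genes) and Dnaja1 at 157.8 and 196.2 CPM (0.31). The HSP90 genes Hsp90aa1 (264 and 270 CPM) and Hsp90ab1 (430 and 440 CPM) both had a log2 ratio of 0.03. Hspa8 was at 1100 and 1165 CPM (0.08) and Hspb1, the small heat shock protein HSP27 in man and HSP25 in mouse, at 129.6 and 143.4 CPM (0.15). Hspa8, Hsp90aa1 and Hspb1 have 6, 2 and 1 near-identical genomic copies, with which their counts may be shared.

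The second comparison was between cell states, which were rebuilt by clustering without any of these genes and named from markers. Cluster 1, with 75 WT and 80 Mkx-/- cells, was higher for 6 of 6 tenocyte (TC) markers, among them Tnmd, Fmod and Col1a1, and is called TC-like. Clusters 2 and 4, with 69 and 43 WT cells and 62 and 34 Mkx-/- cells, were each higher for 5 of 5 tendon progenitor (TPC) markers, among them Cd44, Thy1 and Ly6a, and are called TPC-like. Cluster 3, with 40 and 48 cells, was higher for 2 of 2 tenoblast (TB) markers, Itm2a and Lgals3, and had Mmp10 and Mmp3 among its leading genes. With only these 2 markers behind it, it stays unnamed. No doublet caller was run, and the membership of these states can differ from that in the study. TC-like cells were deeper, at a median of 82665 reads in WT and 72897 in Mkx-/-, against 40739 to 54436 in the TPC-like clusters, and Col1a1, Col1a2 and Sparc took 30.8% and 21.8% of their reads against 2.71% and 3.29% in TPC-like cells. On the log2 scale of TC-like over TPC-like, the median of all genes lay at -0.67 in WT and -0.46 in Mkx-/-, and with those 3 genes left out of the library size at -0.18 and -0.15.

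Against that background, many immediate early genes were higher in TC-like cells. In WT, 15 of 41 genes were over 1.5-fold higher beside 13.7% of all genes, and 11 were lower beside 53.6% of all. In Mkx-/-, 14 of 41 were higher beside 14.8% of all, and 7 were lower beside 44.3% of all. In both genotypes the same 13 were higher, beside 6.64% of all genes, and the same 4 were lower, beside 30.5% of all. The 13 were the AP-1 subunits Fos and Fosb, the transcription factors Nr4a1, Nr4a2, Myc and Cebpd, and the regulators Ier2, Ier3, Ier5, Btg2, Zfp36, Socs3 and Gadd45b. The 4 were Klf4, Klf6, Rhob and Hspb1, and of these only Hspb1 stayed over 1.5-fold lower once each ratio was taken relative to the median of all genes, while 16 genes were then higher in both genotypes. Of the 13, Nr4a2 was no longer past 1.5-fold in both genotypes with 10 dimensions, Myc in cells with 2500 or more genes, and Nr4a2 and Ier3 as a mean of per-cell CPM. Of the 4, Klf4 and Rhob were lost with 10 dimensions and without cells holding markers of another type, and Rhob in cells with 2500 or more genes. In summed CPM, none of the 9 heat shock genes was over 1.5-fold higher in TC-like cells of either genotype. Relative to the median of all genes, Dnajb1 was past 1.5-fold higher in both genotypes (1.14 and 0.64). Hsph1 was so in Mkx-/- only (0.61, against 0.37 in WT).

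**Figure D2:**
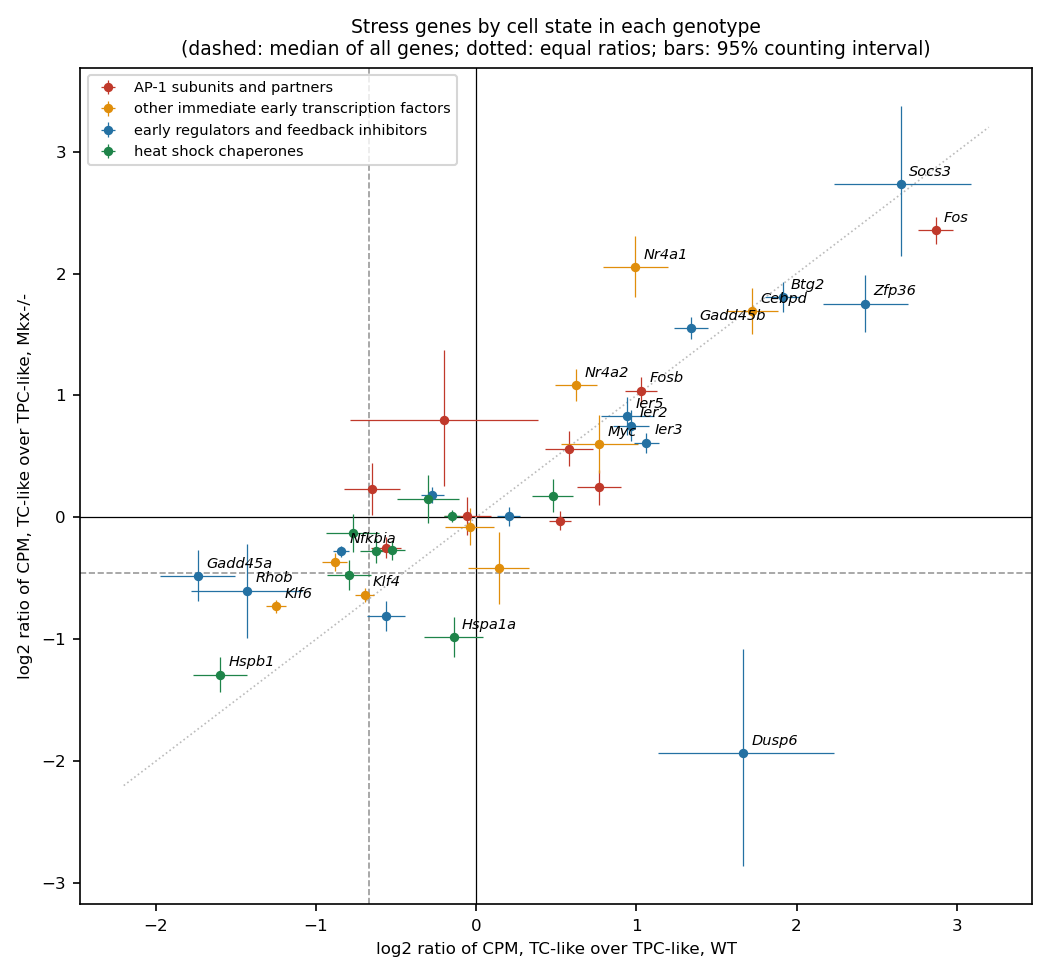
Log2 ratio of CPM, TC-like over TPC-like, for the 41 genes in WT (horizontal) and Mkx-/- (vertical), coloured by group, with 95% counting intervals as bars, the medians of all genes as dashed lines and equality as a dotted line. Fos, Socs3, Zfp36, Btg2, Cebpd and Gadd45b lie at the upper right, all above 1.3 in both genotypes, and Hspb1 at the lower left, at -1.60 and -1.29.

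Fos had the largest ratio in WT. Its summed level was 142.3 CPM in TPC-like cells, 321 in cluster 3 and 1039 in TC-like cells of WT, and 154.3, 364 and 788 CPM in Mkx-/-, log2 ratios of 2.87 [2.76, 2.98] and 2.35 [2.24, 2.46]. Its median WT cell was at 20.4 CPM in the TPC-like and 360 CPM in the TC-like state, and its median Mkx-/- cell at 18.9 and 99.7 CPM. At 20000 reads it was detected in 43.2% of TPC-like and 77.3% of TC-like WT cells, and in 42.4% and 63.8% of Mkx-/- cells. Every state held cells at 0, and the highest cell was in the TC-like state in both genotypes, so the states overlapped while their medians and shares lay apart.

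From TPC-like to TC-like cells, Socs3 went from 9.55 to 59.9 CPM in WT and from 5.22 to 34.7 CPM in Mkx-/-, log2 ratios of 2.65 and 2.73, and its share of positive cells went from 7.21% to 38.7% and from 6.52% to 28.8%. Zfp36 was at 25.2 and 135.6 CPM in WT and 37.8 and 127.2 CPM in Mkx-/-, log2 ratios of 2.43 and 1.75. Btg2 was detected in 44.1% of TPC-like and 66.7% of TC-like WT cells and in 46.7% and 76.2% of Mkx-/- cells, with log2 ratios of 1.91 and 1.81. Other feedback inhibitors had log2 ratios of -0.56 and -0.81 for Zfp36l1, -0.84 and -0.28 for Nfkbia and 0.20 and 0.01 for Dusp1. Relative to the median of all genes these were 0.11 and -0.35, -0.18 and 0.18, and 0.87 and 0.47. On that scale Zfp36l1 and Nfkbia had mixed signs and Dusp1 was higher in both genotypes. Cebpd had log2 ratios of 1.72 and 1.69, Gadd45b 1.34 and 1.55, Fosb 1.03 and 1.04, Nr4a1 0.99 and 2.05, and Ier3 1.06 and 0.61. Ier2 had ratios of 0.97 and 0.75, Ier5 0.94 and 0.83, Myc 0.77 and 0.60, and Nr4a2 0.62 and 1.08. Nr4a1 was detected in 24.3% of TPC-like and 58.7% of TC-like WT cells and in 22.8% and 48.8% of Mkx-/- cells.

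**Figure D3:**
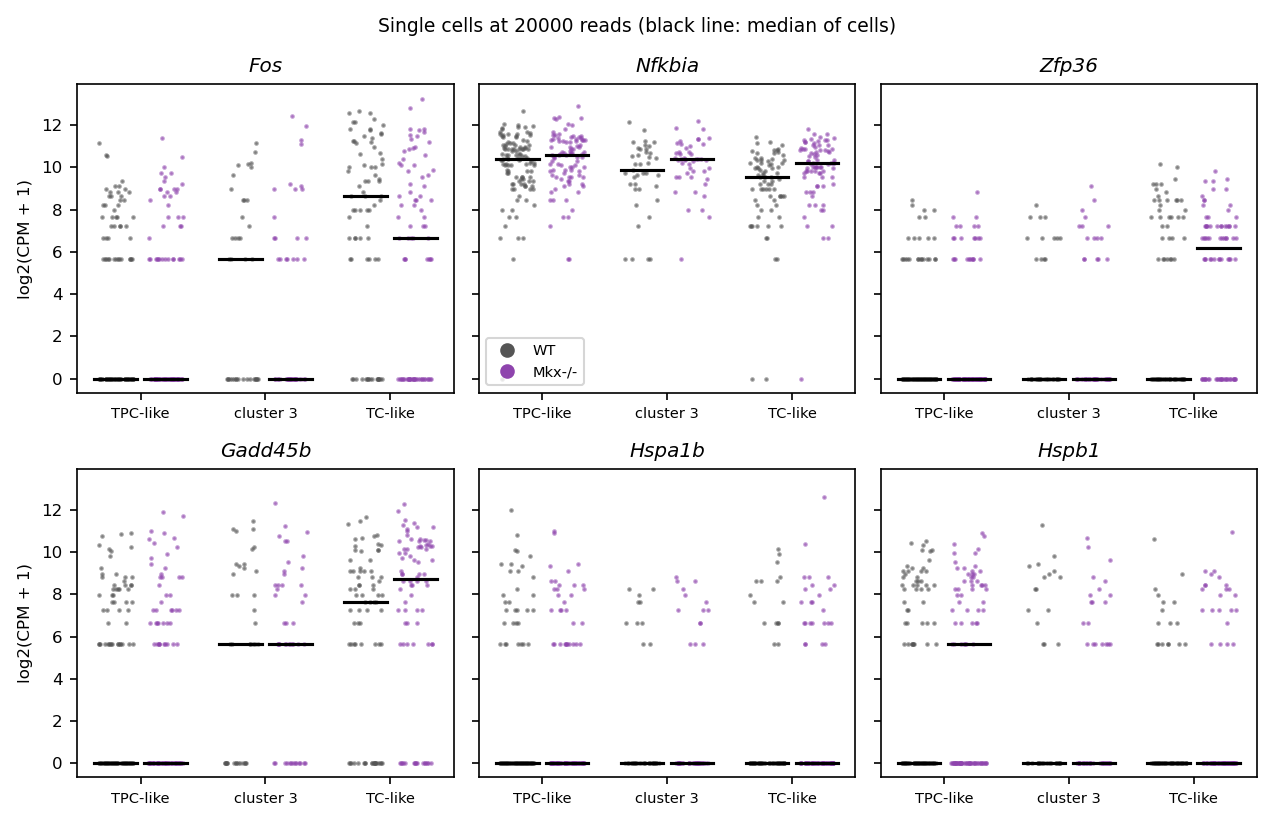
Level of 6 of the genes in single cells thinned to 20000 reads, as log2(CPM + 1), by cell state and genotype, with a black line at the median of each group of cells. Points on the lowest line are cells without a read, and in Fos they are fewer among TC-like than among TPC-like cells of both genotypes.

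Genes with lower CPM in TC-like cells included the Krüppel-like factors Klf4 (log2 ratios -0.70 and -0.64) and Klf6 (-1.25 and -0.73). Relative to the median of all genes these were -0.03 and -0.18 for Klf4 and -0.58 and -0.27 for Klf6. Both were near 1100 CPM in TPC-like cells, Klf4 at 1098 and 1098 CPM and Klf6 at 1103 and 1109 CPM, and lay at 677 and 707 CPM and at 463 and 668 CPM in TC-like cells. Hspb1 was lower in TC-like cells too, going from 190.8 to 63.02 CPM in WT and from 216.1 to 88.4 CPM in Mkx-/-, and its share of positive cells was 42.3% and 22.7% in WT and 52.2% and 28.8% in Mkx-/-. Of the AP-1 genes, Fosl1 had log2 ratios of -0.56 and -0.25, which relative to the median of all genes were 0.11 and 0.21, against 2.87 and 2.35 for Fos, and its highest level was in cluster 3, with 565 CPM in WT cells and 920 CPM in Mkx-/- cells. Gadd45a, the DNA damage responsive relative of Gadd45b, had ratios of -1.74 and -0.48 where Gadd45b had 1.34 and 1.55. Relative to the median of all genes, those of Gadd45a were -1.07 and -0.02. The median ratio was 0.95 and 0.40 over the 14 regulators, 0.52 and 0.25 over the 9 AP-1 genes, 0.14 and -0.08 over the 9 other factors, and -0.53 and -0.27 over the 9 heat shock genes. Each of these was above the median over all genes, -0.67 and -0.46.

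The genotype ratios within a state scattered more widely, with fewer reads behind each. Over 1.5-fold higher in Mkx-/- were 1 of 41 genes in TPC-like cells (21.1% of all genes), 6 in cluster 3 (30.7%) and 4 in TC-like cells (30.4%). Over 1.5-fold lower were 5 in TPC-like cells (19.7% of all genes), 7 in cluster 3 (28.3%) and 4 in TC-like cells (18.2%). Cebpb had log2 ratios of -0.92 in TPC-like cells, -0.42 in cluster 3 and -1.48 in TC-like cells, and was detected in fewer Mkx-/- than WT cells in each, with 31.5% against 45.9%, 27.7% against 53.8% and 27.5% against 53.3%. Socs3 had ratios of -0.87, -2.29 and -0.79, and Maff of -0.96, -1.71 and -0.08. Gadd45b had ratios of 0.56, -0.17 and 0.77, so its higher level in Mkx-/- was seen in the TPC-like and TC-like states and not in cluster 3. Nfkbia had ratios of 0.12, 0.33 and 0.69 and Fosl1 of 0.19, 0.70 and 0.51. Cluster 3, which had the fewest cells, held such values as Ier2 at 1.66, Jun at -1.01 and Dnajb1 at -1.26. None of the 41 genes was past 1.5-fold in opposite directions in TPC-like and TC-like cells, beside 9.48% of all genes, and 1 of 41, Dusp6, had a TC-like over TPC-like ratio past 1.5-fold in opposite directions in WT and Mkx-/-, beside 6.15% of all genes.

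A score per cell, the mean log2(CPM + 1) of the 41 genes at 20000 reads per cell, put the whole set on 1 scale. It was 4.49 in WT (SD over cells 1.08, range 0.77 to 7.43) and 4.58 in Mkx-/- (SD over cells 1.03, range 2.41 to 7.60), and without thinning 4.81 and 4.95. The difference, Mkx-/- minus WT, was 0.09, which is 0.08 of the SD between WT cells. It lay between 0.04 and 0.14 under the alternatives that kept the log2 scale. With each gene scaled to an SD of 1 over cells it was 0.03, in units of that SD. The immediate early genes alone scored 4.43 and 4.48, a difference of 0.05 that ran from -0.0081 to 0.11 under the alternatives, and the heat shock genes 4.69 and 4.93, a difference of 0.24 against SDs of 1.45 and 1.46. The cells of both genotypes overlapped over most of this range.

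By cell state the immediate early score was higher in TC-like than in TPC-like cells. The heat shock score was lower there in WT, with no settled direction in Mkx-/-. The immediate early score was 4.11 in TPC-like, 4.31 in cluster 3 and 4.98 in TC-like cells of WT, and 4.22, 4.13 and 4.98 in Mkx-/-. The difference, TC-like minus TPC-like, was 0.87 in WT and 0.76 in Mkx-/-, and under the 7 alternatives tried it lay between 0.51 and 1.17 in WT and between 0.47 and 0.95 in Mkx-/-. The heat shock score was 4.86, 4.89 and 4.33 in WT and 5.04, 4.76 and 4.91 in Mkx-/-, with differences of -0.53 and -0.13. The latter was 0.052 when Col1a1, Col1a2 and Sparc were left out of the library size and 0.012 without thinning, so the heat shock score of Mkx-/- TC-like cells has no settled direction. In summed CPM the median log2 ratio of the heat shock genes, -0.53 and -0.27, was above that of all genes, -0.67 and -0.46. Within TC-like cells the heat shock score was 0.57 higher in Mkx-/- than in WT, while the median log2 ratio of all genes there was 0.20 and the matrix genes took the shares of reads given above. The immediate early score of TC-like cells differed by 0.0052, and by -0.0089 without thinning. The SD between cells of 1 state and genotype was between 0.93 and 1.39 for the immediate early score, larger than the difference between states.

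**Figure D4:**
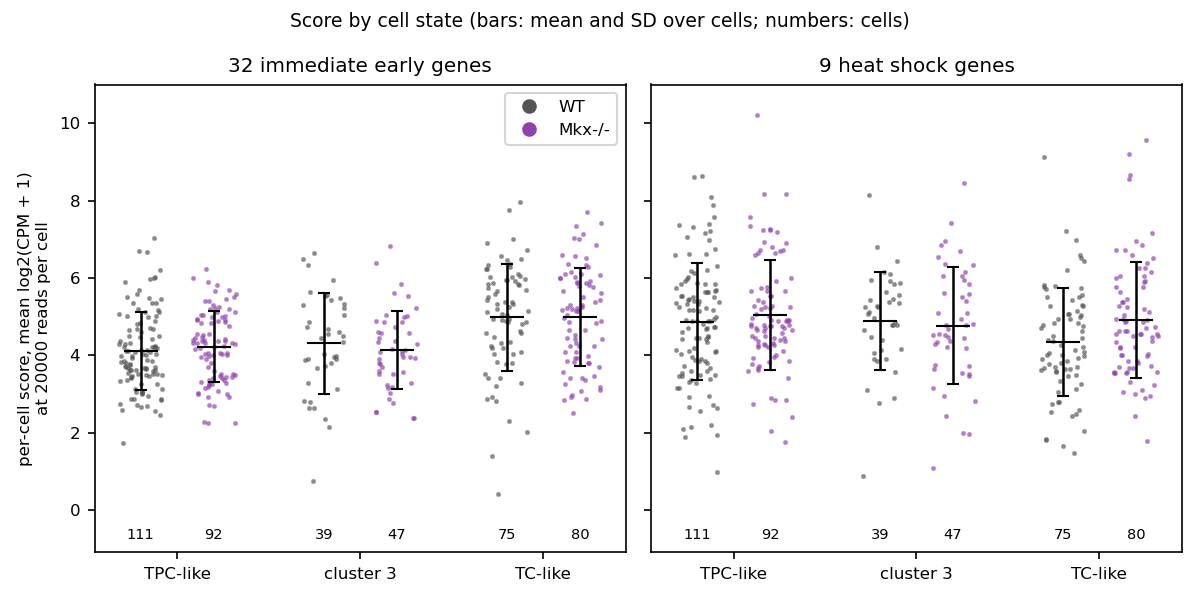
Score of each cell, the mean log2(CPM + 1) at 20000 reads per cell, for the 32 immediate early genes (left) and the 9 heat shock genes (right), by cell state and genotype, with the mean and SD over cells as bars and the number of cells below. The mean immediate early score is higher in TC-like (4.98 and 4.98) than in TPC-like cells (4.11 and 4.22), with wide overlap of cells, and the heat shock score is not.

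Depth moved with the score. Spearman's rank correlation of the score with the reads of a cell was 0.48 in WT and 0.50 in Mkx-/- without thinning and 0.36 and 0.38 after it, and with the number of detected genes 0.28 and 0.27 after thinning. TC-like cells were the deeper ones, and the part of depth in the difference between states was not tested beyond the thinning.

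Over all cells, the immediate early groups were more correlated with each other than with the heat shock genes. These correlations describe the cells of 1 sample each, and which of those cells shared a library or capture run is not given. The rank correlation between the AP-1 score and the regulator score was 0.61 over the thinned WT cells and 0.59 over the thinned Mkx-/- cells, and between the AP-1 score and the score of the other factors 0.47 and 0.43. The rank correlation between the immediate early score and the heat shock score was 0.18 and 0.27. Within TPC-like cells alone the AP-1 and regulator scores had a rank correlation of 0.38 in WT and 0.48 in Mkx-/-. The order did not hold throughout that state. In its Mkx-/- cells the AP-1 score had 0.19 with the score of the other factors and 0.28 with the heat shock score. The immediate early score had 0.35 with the heat shock score there. Nor did the order hold throughout cluster 3 of Mkx-/-, where the regulator score had 0.27 with the other factors and 0.36 with the heat shock score.

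Single pairs of genes were weakly correlated. Over all 820 pairs the median rank correlation was 0.05 in WT and 0.06 in Mkx-/-. It was 0.07 and 0.07 over pairs of immediate early genes and 0.11 and 0.12 over pairs of heat shock genes. The rank correlation was over 0.2 in both genotypes for 48 of 496 pairs of immediate early genes, 2 of 288 pairs of an immediate early with a heat shock gene, and 0 of 36 pairs of heat shock genes. Ranked by the lower of the values in the genotypes, the highest pairs were Fosb with Gadd45b (0.37 and 0.37), Fos with Fosb (0.36 and 0.40), Fos with Gadd45b (0.43 and 0.35), Nr4a1 with Gadd45b (0.37 and 0.35) and Fos with Socs3 (0.39 and 0.33). The highest value of any pair was 0.50 in WT and 0.40 in Mkx-/-. A single pair was under -0.2 in both, Fos with Fosl1, at -0.21 and -0.28. Against the score of the remaining immediate early genes, Gadd45b had a rank correlation of 0.48 and 0.54, Fosb 0.53 and 0.44, Atf3 0.53 and 0.43 and Zfp36 0.54 and 0.38, while Gadd45a had -0.13 and -0.08.

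**Figure D5:**
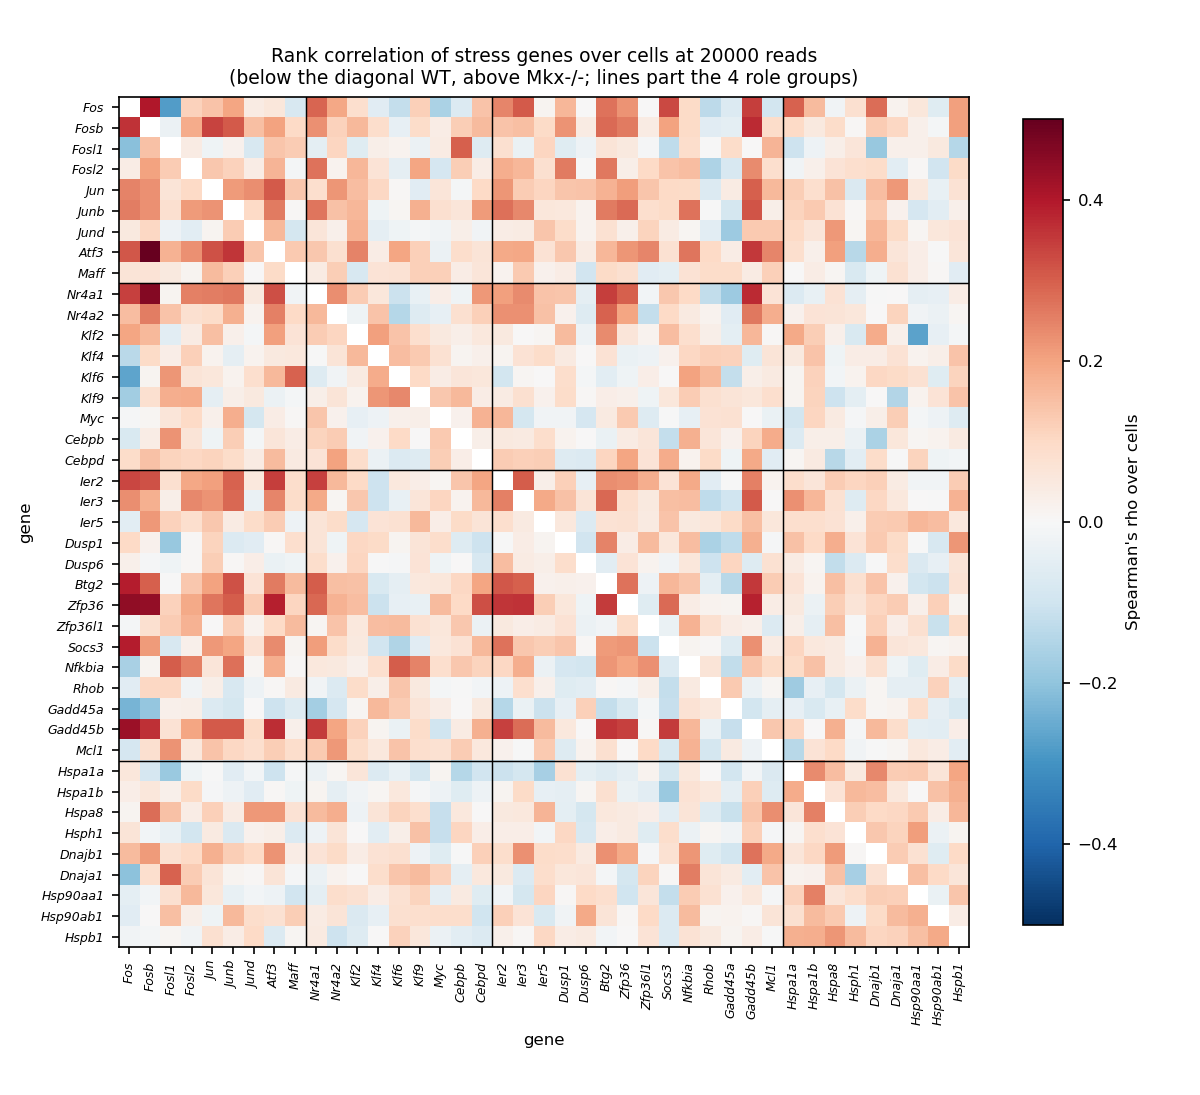
Spearman's rank correlation over cells at 20000 reads for each pair of the 41 genes, with WT below and Mkx-/- above the diagonal, black lines between the 4 groups and colour from -0.5 to 0.5. The warm cells gather in the immediate early blocks around Fos, Fosb, Atf3, Btg2 and Gadd45b. In the heat shock block at the lower right the highest pair is at 0.25 in WT and 0.24 in Mkx-/-. The median of that block, 0.11 and 0.12, is nevertheless above that of the immediate early pairs, 0.07 and 0.07.

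Outside the set, 3811 genes with enough reads were ranked by the lower of their correlations with each score in the genotypes. The genes most like the immediate early score were Csrnp1 (0.62 and 0.46), Mt2 (0.37 and 0.37), Pde4b (0.41 and 0.34), Ccnl1 (0.33 and 0.34) and Gem (0.48 and 0.32). Csrnp1 encodes a cysteine- and serine-rich nuclear protein and Gem an inducible small GTPase, and both belong to the wider list of early response genes below. Most like the heat shock score were Hsp25-ps1 (0.47 and 0.38), Hes1 (0.27 and 0.25), Tppp3 (0.25 and 0.26), Gm6210 (0.26 and 0.24) and Gm8355 (0.25 and 0.24). Hsp25-ps1 lies at the copy of Hspb1 on chromosome 13 and Gm8355 at the copy of Hspa8 on chromosome 10, at 99.38% and 98.57% identity, so these may share reads with the chaperones that made up the score.

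The 3 wider lists gave the surroundings of the set, and their counts stand beside 16% of all genes over 1.5-fold higher and 13.1% lower. Of 44 other early response genes with 100 or more reads, 5 were over 1.5-fold higher and 5 lower in Mkx-/-, with a median log2 ratio of 0.08. The chemokine Cxcl1 had 2175 CPM in WT against 4722 CPM in Mkx-/-, a log2 ratio of 1.12 [1.10, 1.14]. Per2 (1.80, at 2.49 and 8.70 CPM) and Sik1 (1.37, at 3.30 and 8.55 CPM) were the highest of the list, and Arc (-2.27, at 14.3 and 2.97 CPM), Lif (-0.88) and Dusp5 (-0.84) the lowest. Of 31 other heat shock and co-chaperone genes, 4 were higher and 0 lower, with a median of 0.10. The small heat shock protein Cryab was at 648 and 1073 CPM (0.73), the HSP90 activator Ahsa1 at 33.1 and 52.4 CPM (0.66) and Fkbp5 at 9.39 and 14.5 CPM (0.63). For Fkbp5, 1 cell held 22.7% of its WT reads and another 21.5% of its Mkx-/- reads. The lowest were Hsf2 (-0.19), Dnajb4 (-0.18) and Fkbp4 (-0.16). Of 22 kinases and factors upstream of these programmes, 3 were higher and 2 lower, with a median of 0.22. They ran from Mkl2 (-0.81), Mapk3 (-0.68) and Mapk9 (-0.54), which was within 1.5-fold, to Map2k2 (0.69), Mkl1 (0.79, with 51.2% of its Mkx-/- reads in 1 cell) and Elk1 (1.0, at 3.81 and 7.63 CPM, with 57.7% of its WT reads in 1 cell).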

How the data were processed

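Tail tendon cells of 1 WT and 1 Mkx-/- sample were profiled on a Fluidigm C1 system. The authors deposited a table of raw read counts per gene and cell, not normalized, and 0 of its columns were left unused. The paper's methods name AfterQC, NGSQCToolkit, bowtie2 on mm9 and featureCounts, and the submitters' processing notes name mm10, Bowtie2 and featureCounts. How reads with several matches were counted is not given in the sources used here. Counts were summed per genotype and state and divided by all reads. Intervals were exact Poisson for sums, exact conditional binomial for ratios and Clopper-Pearson for shares. Cells were clustered with Seurat 5.3.0 in R 4.3.3 (the 1000 most variable genes per genotype, pooled, canonical correlation, 4 dimensions, resolution 0.4), and other steps used Python 3.11.15, scipy 1.17.1 and code tested on simulated data. edgeR 4.0.16 and DESeq2 1.42.0 gave alternative library sizes only. Near-identical copies were genome matches of 95% or more identity over 50% or more of a transcript (NCBIM37, GENCODE M1), and Cebpd had no transcript to search.

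All members were described. Other genes were named by rule: the 5 most like each score (1000 or more reads, detected in 20% of cells) and the 3 highest and 3 lowest ratios of each wider list. Members and lists were chosen with earlier results of these data known. In the comparison of states, the ratio less the median of all genes, the library without 3 matrix genes, the mean of per-cell CPM, and leaving out leading cells or cells with markers of another type were chosen after seeing the data, as was the heat shock score without genes that have copies.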

Additional observations from a re-analysis of the deposited data

Results flagged for a closer look

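Dusp6, the ERK phosphatase, had a log2 ratio of TC-like over TPC-like cells of 1.67 [1.13, 2.23] in WT and -1.94 [-2.86, -1.08] in Mkx-/-, so the ratios of summed reads pointed in opposite directions in the genotypes. The difference was not tested, since each genotype is 1 sample. The levels were 6.66 and 21.2 CPM in TPC-like and TC-like cells of WT and 8.84 and 2.31 CPM in Mkx-/-, the last from 16 reads. Without the leading cell of each genotype and cluster the ratios were 0.70 and -2.68, and without the cells that carried markers of another cell type they were 0.36 and -1.53. It was the only 1 of 41 genes with opposite ratios past 1.5-fold, beside 6.15% of all genes.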

How the results depend on the processing

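The TC-like minus TPC-like difference of the score kept its sign for all members and for the immediate early genes under every alternative run. Without thinning it was 0.71 for all members, 1.02 for immediate early and -0.41 for heat shock genes in WT, and 0.012 for heat shock genes in Mkx-/-. With a pseudocount of 10 CPM it was 0.32 (WT) and 0.35 (Mkx-/-) for all members, 0.51 and 0.47 for immediate early genes, and -0.37 for heat shock genes in WT. With the library size taken without Col1a1, Col1a2 and Sparc it was 0.86 and 0.75, 1.17 and 0.95, and -0.27 and 0.052, and without cells holding markers of another type it was -0.39 for heat shock genes in WT. Genes over 1.5-fold lower in TC-like cells were 4 in WT and 3 in Mkx-/- without those 3 matrix genes, and 3 and 2 relative to the median of all genes, against 11 and 7. Relative to that median the ratio changed sign in 12 genes in WT and 9 in Mkx-/-, and among those lower by over 1.5-fold Maff (0.015) and Hsp90aa1 (0.044) turned positive in WT. The genotype ratio took either sign in 16 of 41 genes, and of those past 1.5-fold Dusp6 turned to 0.30 as a mean of per-cell CPM. The count over 1.5-fold higher in Mkx-/-, 1 as reported, was 0 as a mean of per-cell CPM, with the library size without the 3 matrix genes, with TMM and with equal weight for each cluster, and 2 in cells under 5000 genes, and the count lower was 2, against 4, among genes with 1000 or more reads. Maff, Cebpb and Socs3 stayed over 1.5-fold lower under the other alternatives, and Rhob (-0.55) joined them under TMM, DESeq2, the library without the 3 genes and the mean of per-cell CPM. In WT, the rank correlation between the immediate early and heat shock scores was 0.34 within cluster 3, 0.33 within TC-like cells and 0.29 without the heat shock genes that have copies, against 0.18. Of the wider lists, other early response genes gave 8 higher and 3 lower as a mean of per-cell CPM and 2 and 1 at 1000 or more reads, against 5 and 5. The other heat shock genes gave 2 higher under each of the mean of per-cell CPM, 1000 or more reads and TMM, against 4, and the upstream genes gave 1 higher and 0 lower at 1000 or more reads, against 3 and 2. Where a value moved, the cause was not tested, other than the fewer genes counted at 1000 or more reads. No paired analysis was possible because each genotype is 1 sample and its cells carry no number shared with the other genotype. Genes under 1000 reads (Jund, Dusp6, Socs3, Rhob) are limited most by depth.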
